A study of Homo sapiens with 6 samples.

Results

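The genes described here are those of the actin and myosin machinery that carry a gene symbol in the annotation of these arrays: 18 unconventional myosins, the myosin light chain kinases MYLK, MYLK2 and MYLK3, and 6 proteins that lie along the actin filament, namely the tropomyosins TPM1, TPM2 and TPM4, the calponin CNN2 and the transgelins TAGLN and TAGLN2. They were chosen by symbol alone, 27 genes of 14884 with a symbol, and have 29 of 53617 transcript clusters (a transcript cluster is the set of probes that this array type summarizes as 1 gene). The same choice asked for class II myosin heavy chains, myosin light chains, actins, alpha-actinins, ROCK1, ROCK2, CNN1, CNN3 and TPM3. No transcript cluster carries one of these symbols in the annotation used, so MYH9, MYL9, ACTB, ACTA2 and their relatives were not analysed here, and the set holds motors, kinases and filament-binding proteins but no actin.

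SUM159 cells are an established line from a triple negative BC. One group consisted of SUM159 cells transduced with a lentivirus carrying miR-1287-5p, the other of SUM159 cells transduced with a control virus, which the labels call an empty vector. The virus names carry GFP for both groups, and the stably transduced cells were kept under puromycin selection. Each group had 3 cultures with 1 Affymetrix array each. The study's methods speak of biological triplicates, but neither they nor the labels say whether they go back to separate transductions, so p-values measure the spread between these cultures. The virus introduces a microRNA with the mature sequence below, shown because it is the agent by which the labels tell the groups apart. In RefSeq (GRCh38.p14) it lies at chr10:98395271-98395292 on the minus strand, and the capitals mark the seed, bases 2 to 8, with which a microRNA pairs to its target transcripts.
hsa-miR-1287-5p: uGCUGGAUcagugguucgaguc

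Myosins are motors that move along actin filaments by splitting ATP. Class II myosins form the bipolar filaments that contract, and in smooth muscle and nonmuscle cells they are switched on when a myosin light chain kinase, activated by calcium and calmodulin, phosphorylates their regulatory light chain. The unconventional myosins do not form such filaments: class I members tie membranes to actin, class V members carry vesicles and organelles, and class III, VII and XV members serve actin-rich protrusions such as those of sensory hair cells. Tropomyosins run along the groove of the actin filament and set which motors and severing proteins can reach it, and calponins and transgelins bind the filament side. In breast tissue, contractile proteins of this kind are known from myoepithelial cells and from stromal myofibroblasts.

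The arrays had median log2 signals of 4.33 to 4.42, and any 2 of them correlated with Pearson's r of 0.970 to 0.988, taken over transcript clusters, whose signals depend on each other. A principal component analysis over the 26808 transcript clusters with a mean signal above the median put 55.7% of the variance on its first axis. There the overexpression arrays lay at 8.10, −14.6 and −36.0 and the control arrays at −41.5, 60.6 and 23.4, so control replicates 1 and 2 stood at the 2 ends. All 5 mesenchymal markers checked (VIM, CD44, FN1, AXL and EGFR) had a mean log2 signal above 4.37, the median over all transcript clusters, while ESR1 (4.23 in overexpression arrays and 4.21 in control arrays) and PGR (3.56 and 3.70) lay below it. The smooth muscle marker MYOCD (3.57 and 3.66) also lay below it, and the skeletal muscle regulator MYOD1 (4.29 and 4.43) lay close to it. Over the whole marker lists, 2 of 4 luminal and receptor markers measured had a mean log2 signal above it, GATA3 (6.63) and FOXA1 (4.42). So did 2 of 4 striated muscle markers, NPPA (5.06) and MYOG (5.00), and 3 of 4 smooth muscle markers, DES (6.27), SMTN (6.21) and LMOD1 (5.19). On these lists 0 markers had an unadjusted p under 0.05 by limma. Of the 14884 genes with a symbol, 10348 had a mean log2 signal above the median over all transcript clusters. A signal above it therefore does not by itself mark a cell type. With 3 arrays per group, the number of arrays sets how precise each difference is. Since total RNA of whole cultures was measured, fewer cells that express a gene and less RNA per cell cannot be told apart.

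Among the 27 genes only MYLK differed clearly between the groups before adjustment, and after adjustment over all transcript clusters no gene of the set passed. MYLK encodes the kinase that phosphorylates the regulatory light chain of smooth muscle and nonmuscle myosin II, and its messages also include the short, kinase-free telokin. Its log2 signal was 4.81, 4.95 and 4.96 in the miR-1287-5p overexpressing cultures, against 5.80, 5.71 and 5.73 in the control cultures. All 3 overexpression arrays lay below all 3 control arrays, and the gap between the highest overexpression array and the lowest control array was 0.756. The means were 4.90 ± 0.0861 in overexpressing and 5.75 ± 0.0458 in control cells (SD over 3 arrays each), a log2 fold change of −0.84 with a 95% interval from −1.13 to −0.56, or 1.79-fold. This gave an unadjusted p = 0.000188 and an adjusted p = 0.394 in limma, and p = 0.1 in an exact permutation test (two-sided), which is the smallest that 3 arrays against 3 allow. By unadjusted p MYLK ranked 25 of 53617 transcript clusters. The study lists MYLK among the genes it found lower, a list made from these same arrays, and its direction here therefore adds no independent support.

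Only 1 of the 27 genes (3.70%) was lower at an unadjusted p under 0.05 by limma, MYLK itself, where 2.44% of all transcript clusters were lower at that threshold. None was higher, against 2.96% of all transcript clusters. With an added threshold of 1.5-fold the set again held MYLK alone, against 1.01% lower and 0.694% higher over all transcript clusters. After adjustment, 0 of the 27 were called by limma and 0 by the methods' t-test, against 0.00373% of all transcript clusters in limma. The log2 fold change was below 0 in 15 of the 27 genes (55.6%), against 44.5% of all transcript clusters and 48.0% of genes with a symbol. Its median was −0.016 over the set (−0.011 without MYLK), 0.029 over all transcript clusters and 0.011 over genes with a symbol. Without control replicate 1, 11 of the 27 lay below 0, with medians of 0.029 over the set and 0.063 over all transcript clusters. With array weights 11 lay below 0 (medians 0.077 and 0.032), and without overexpression replicate 1 or 2 it was 12. In 5 genes (18.5%) the groups did not overlap, MYLK, MYO1E and TPM4 lower and TPM2 and TAGLN2 higher in overexpressing cells, against 11.2% of all transcript clusters. The remaining 22 genes overlapped between the groups.

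**Figure D1:**
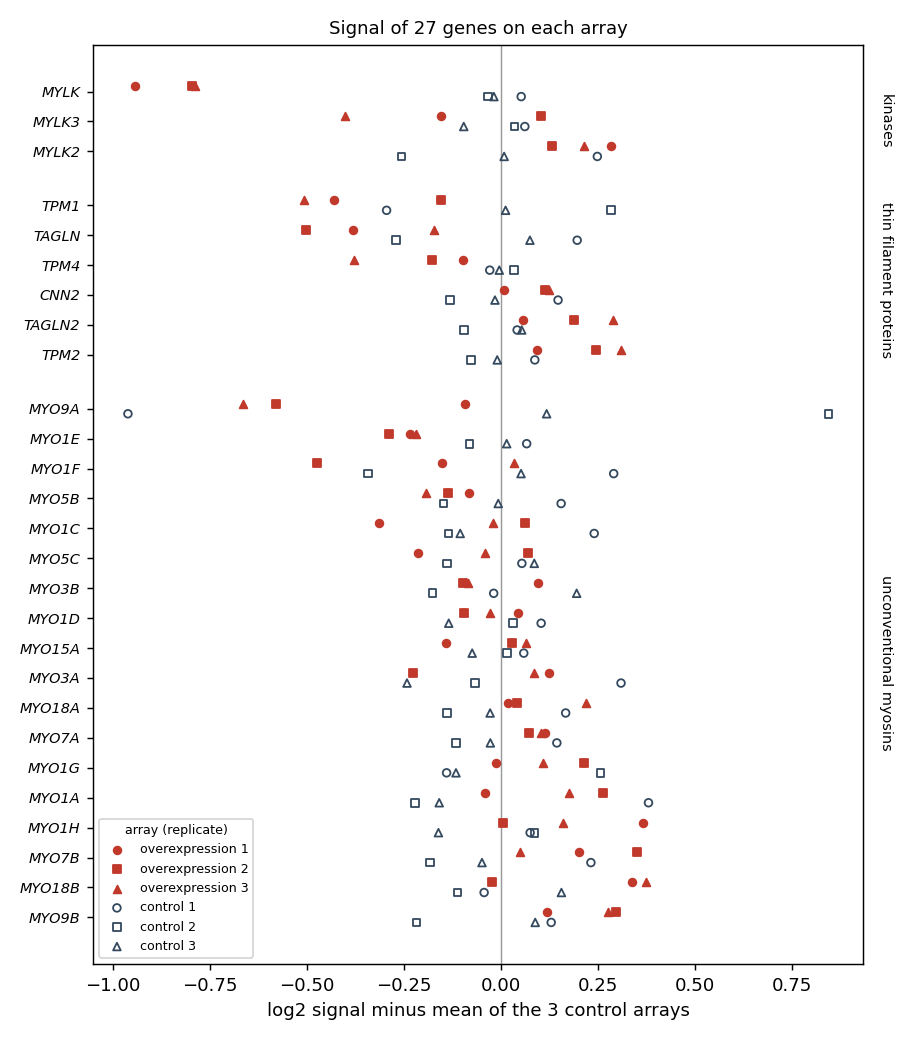
Log2 signal of each of the 27 genes on each of the 6 arrays, minus the mean of the 3 control arrays (x axis, log2 units). Filled red symbols are miR-1287-5p overexpressing cultures, drawn above open symbols for control cultures, and the symbol shape gives the replicate. MYLK stands apart at the left, with all its overexpression arrays below its control arrays by 0.756 or more, while MYO9A has control arrays at both ends of the widest row.

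The other myosin light chain kinases had smaller differences, in either direction. MYLK2, the isoform known from skeletal muscle, had a log2 signal of 4.46, 4.31 and 4.39 in overexpressing cultures and 4.43, 3.92 and 4.19 in control cultures, a log2 fold change of 0.21 (95% interval −0.17 to 0.59, limma adjusted p = 0.872). MYLK3, the isoform known from heart muscle, had 3.94, 4.20 and 3.70 in overexpressing cultures and 4.16, 4.13 and 4.002 in control cultures, a log2 fold change of −0.15 (95% interval −0.53 to 0.23, limma adjusted p = 0.885). The groups overlapped in both genes, and both had a mean signal below 4.37, the median over all transcript clusters. Set against these relatives on the same arrays, the log2 fold change of MYLK was below that of MYLK2 (difference −1.05, SE 0.15) and that of MYLK3 (difference −0.69, SE 0.16), with no overlap between the groups in either difference. Each had an exact permutation p = 0.1 (two-sided), or 0.24 adjusted over the 12 pairs of relatives compared in this way. MYLK-AS1, a noncoding transcript named as antisense to MYLK, whose gene model overlaps that of MYLK in RefSeq, is outside the set. It had a log2 signal of 5.48, 5.24 and 5.65 in overexpressing cultures and 5.87, 5.37 and 5.73 in control cultures, a log2 fold change of −0.20 (95% interval −0.63 to 0.23, limma adjusted p = 0.881), and its groups overlapped.

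**Figure D2:**
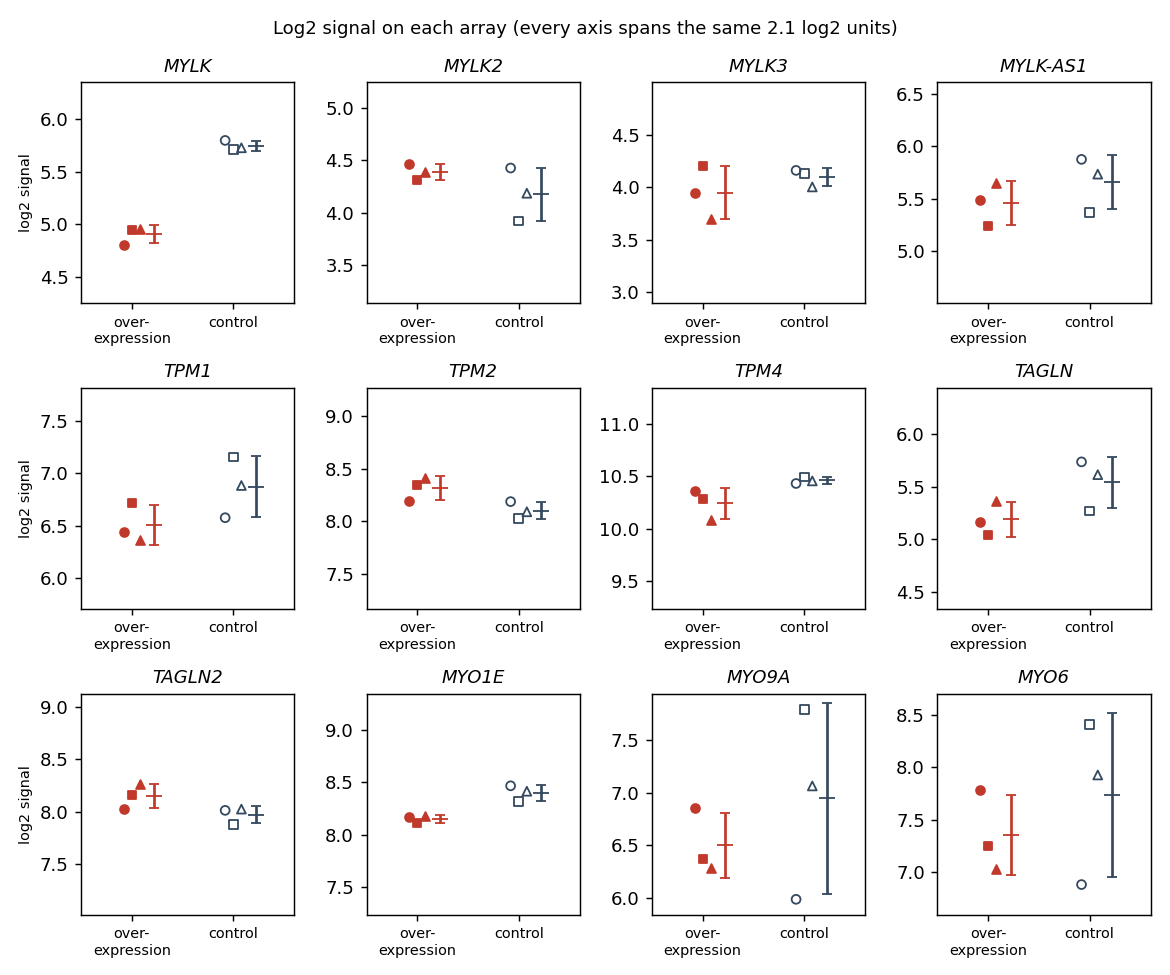
Log2 signal of 12 genes on each array (y axis, each panel spanning the same number of log2 units), with miR-1287-5p overexpressing cultures at the left and control cultures at the right of each panel. Symbols are arrays, with the shape giving the replicate, and the bars beside them are the mean ± SD of 3 arrays. MYLK has the widest separation between the groups, at means of 4.90 and 5.75, and MYO9A and MYO6 the widest spread among control arrays.

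The filament-binding proteins went both ways, and none of the 6 passed the adjusted threshold. TPM1, a tropomyosin of muscle and of the stress fibers of other cells, had a log2 signal of 6.44, 6.72 and 6.36 in overexpressing cultures and 6.58, 7.15 and 6.88 in control cultures, a log2 fold change of −0.36 (95% interval −0.80 to 0.072, limma adjusted p = 0.871). Control replicate 1 lay within the range of the overexpression arrays. A further transcript cluster of TPM1, with a mean signal of 3.32, had a log2 fold change of −0.12. TPM4, a tropomyosin of nonmuscle cells, had 10.36, 10.28 and 10.08 in overexpressing cultures and 10.43, 10.50 and 10.46 in control cultures, a log2 fold change of −0.22 (95% interval −0.52 to 0.089, limma adjusted p = 0.871). TPM2, the beta tropomyosin, had 8.194, 8.35 and 8.41 in overexpressing cultures and 8.189, 8.02 and 8.09 in control cultures, a log2 fold change of 0.22 (95% interval −0.087 to 0.52, limma adjusted p = 0.871). The groups did not overlap in TPM4 and TPM2, which lay in opposite directions, but for TPM2 the nearest 2 arrays of different groups, both replicate 1, were nearly level. On the same arrays the log2 fold change of TPM2 exceeded that of TPM4 by 0.43 (SE 0.16), and that of TPM1 was below that of TPM2 by 0.58 (−0.58, SE 0.25). Neither difference overlapped between the groups, at an exact permutation p = 0.1 each (two-sided, 0.24 adjusted over the 12 pairs). TPM1 and TPM4 differed by −0.15 (SE 0.18), an interval that does not set them apart.

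TAGLN, or SM22-alpha, is an early marker of the smooth muscle program that also appears in cultured mesenchymal cells. Its log2 signal was 5.16, 5.04 and 5.37 in overexpressing cultures, against 5.74, 5.27 and 5.62 in control cultures. Overexpression replicate 3 lay above control replicate 2, so the groups overlapped, and the log2 fold change was −0.35 (95% interval −0.75 to 0.047, limma adjusted p = 0.871). TAGLN2, its widely expressed relative, had 8.03, 8.16 and 8.26 in overexpressing cultures, against 8.01, 7.88 and 8.02 in control cultures, a log2 fold change of 0.18 (95% interval −0.13 to 0.48, limma adjusted p = 0.871). Its groups did not overlap, but the lowest overexpression array and the highest control array were nearly level. In the fold change TAGLN was below TAGLN2 by 0.53 (−0.53, SE 0.13) on the same arrays, without overlap (exact permutation p = 0.1, two-sided, and 0.24 adjusted over the 12 pairs). CNN2, a calponin of nonmuscle cells, had means of 11.6 ± 0.0643 in overexpressing and 11.5 ± 0.140 in control cells (SD over 3 arrays each), a log2 fold change of 0.081 (95% interval −0.23 to 0.39, limma adjusted p = 0.916), and its further transcript cluster gave 0.088.

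The 18 unconventional myosins lay close to 0, with 10 below and 8 above and log2 fold changes from −0.45 to 0.23. None had an unadjusted p under 0.05, and their adjusted p lay between 0.871 and 0.995 from limma's test. The 7 class I myosins had log2 fold changes from −0.25 to 0.18. Of these MYO1E, a membrane-bound motor with a long tail that takes part in endocytosis, was the only one without overlap, at 8.16, 8.11 and 8.18 in overexpressing cultures and 8.46, 8.32 and 8.41 in control cultures. Its log2 fold change was −0.25 (95% interval −0.53 to 0.034, limma adjusted p = 0.871), and its spread within the groups was small (SD 0.0366 in overexpressing and 0.0747 in control cells). MYO1F, a motor known from immune cells, had a log2 fold change of −0.20, and MYO1C, which helps to bring glucose transporters to the cell surface in fat cells, −0.091. MYO1D had −0.027. MYO1A, the brush border motor of the gut, had 0.13, MYO1G, known from blood cells, 0.10 and MYO1H 0.18, all 3 with a mean signal below the median over all transcript clusters.

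The remaining classes gave the following values. Of the class V vesicle carriers, MYO5B had a log2 fold change of −0.14 (95% interval −0.45 to 0.18) and MYO5C −0.062. MYO5B lies on chromosome 18 with 9 named genes of these arrays between it and SMAD2, and its log2 signal was 5.04, 4.99 and 4.93 in overexpressing and 5.28, 4.98 and 5.12 in control cultures, which overlapped. The class III motors MYO3A and MYO3B had −0.0062 and −0.029, the class VII motors MYO7A and MYO7B 0.096 and 0.20, and MYO15A, which is needed for the growth of hair cell stereocilia, −0.016. Most of these genes are known from sensory or absorptive cells, and MYO3A, MYO3B, MYO5C and MYO7A had a mean signal below the median over all transcript clusters. Of the class XVIII myosins, MYO18A had 0.093 and MYO18B, known from striated muscle, 0.23 (5.21, 4.85 and 5.25 in overexpressing and 4.83, 4.76 and 5.03 in control cultures). None of the 4 pairs of relatives in classes III, V, VII and XVIII differed between the groups without overlap.

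**Figure D3:**
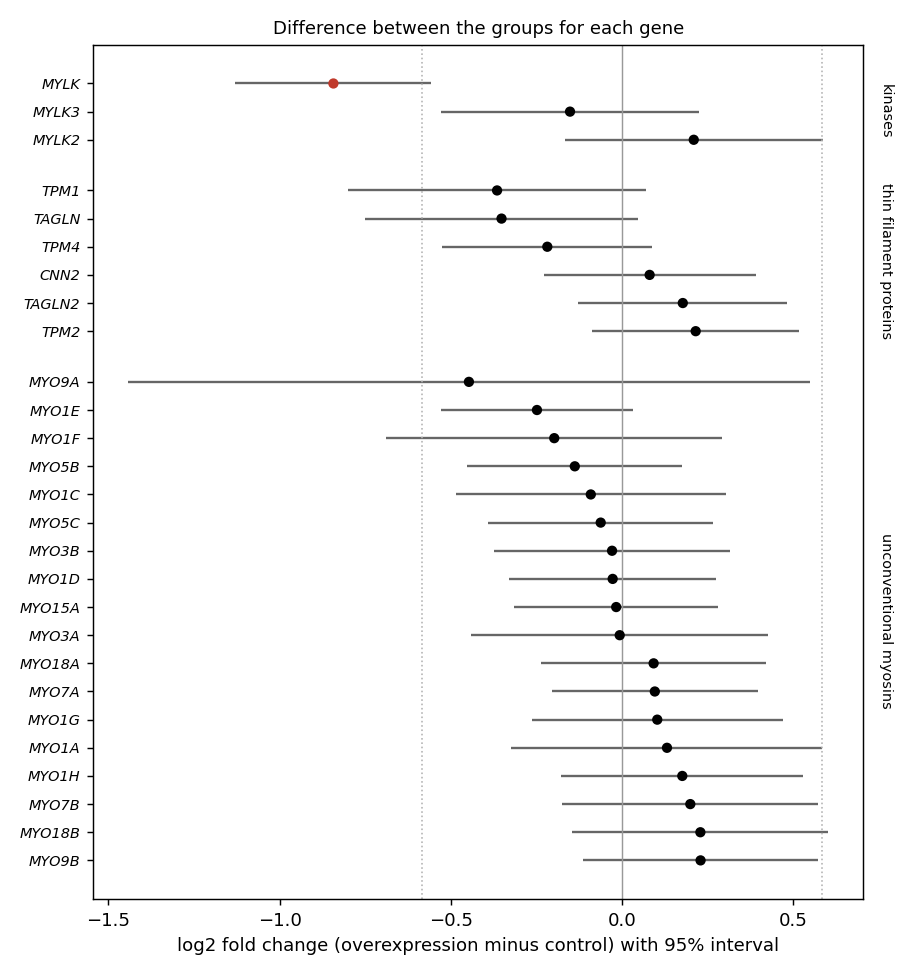
Log2 fold change of miR-1287-5p overexpressing over control cultures for each of the 27 genes (x axis, points) with its 95% interval from limma's fit (lines), grouped by role. Dotted lines mark 1.5-fold in either direction. The interval of MYLK, in red, is the only 1 of 27 that does not include 0, and 19 intervals lie inside the dotted lines.

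The class IX myosins are single-headed motors. MYO9A had the widest spread of the set, with a log2 signal of 6.86, 6.37 and 6.28 in overexpressing cultures and 5.99, 7.79 and 7.07 in control cultures, a range of 1.81 over the 6 arrays. Control replicate 1 was the lowest of all arrays and control replicate 2 the highest, and the log2 fold change of −0.45 had a 95% interval from −1.44 to 0.55 (limma adjusted p = 0.881). Without control replicate 2 the log2 fold change of MYO9A was −0.025, and without control replicate 1 it was −0.93 (unadjusted p = 0.0122, limma adjusted p = 0.351). The arrays stood in the same order in MYO9A as on the first principal component, which these arrays share across many genes, and MYO6, outside the set, had that order too, while CNN2 had the reverse. The part of this component in the result was not tested. MYO9B, the other class IX member, had 9.46, 9.64 and 9.62 in overexpressing cultures and 9.47, 9.13 and 9.43 in control cultures, a log2 fold change of 0.23 (95% interval −0.11 to 0.57, limma adjusted p = 0.871). The log2 fold changes of MYO9A and MYO9B differed by −0.68 with an SE of 0.66, and the groups overlapped in that difference.

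A further 4 named myosins fall outside the symbol pattern, and their values are given for completeness. MYO10, the filopodial motor, had a log2 fold change of −0.22, with no overlap between the groups (9.324, 9.324 and 9.17 in overexpressing and 9.331, 9.57 and 9.57 in control cultures, limma adjusted p = 0.871). MYO6, the motor that walks toward the minus end of the filament, had −0.38, MYO19, the mitochondrial motor, 0.077 and MYO16 0.015, and their groups overlapped.

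Of the 27 genes, 19 had a 95% interval inside 1.5-fold in either direction, so that a change of that size lies outside their intervals. The interval of the other 8 reached past it, MYLK and MYO9A among them. The median within-group SD was 0.15 over the set and 0.21 over all transcript clusters. Control replicate 1 gave the highest value in 11 of the 27 genes and control replicate 2 the lowest in 11. Besides MYO9A, several log2 fold changes whose interval includes 0 moved by over 1.5 times when 1 array was left out. Without control replicate 2 the log2 fold change was 0.082 for MYLK2, 0.015 for CNN2, 0.12 for MYO9B, 0.11 for MYO7B and −0.22 for TPM1. Without control replicate 1 it was 0.33 for MYLK2, 0.15 for CNN2 and 0.32 for MYO7B. Without overexpression replicate 2 it was 0.36 for MYO18B and 0.12 for MYO7B, and without overexpression replicate 3 it was −0.14 for TPM4.

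**Figure D4:**
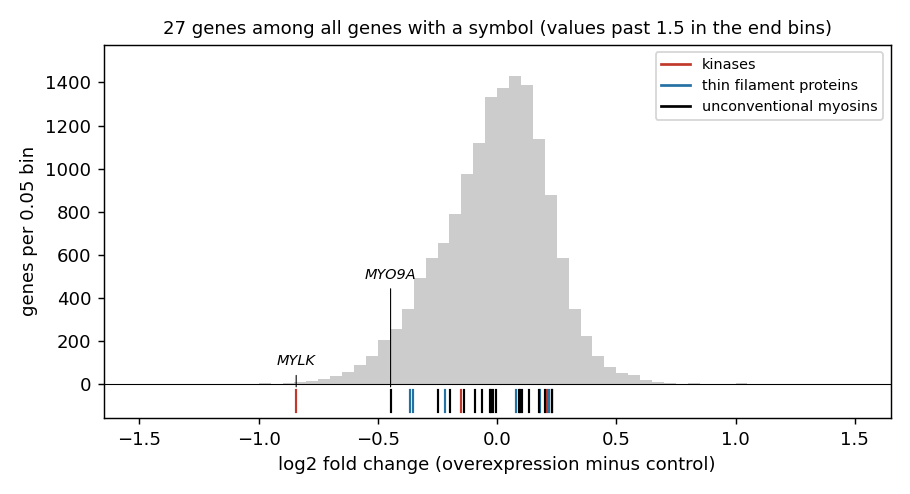
Number of genes (y axis) per bin of 0.05 in log2 fold change (x axis, overexpression minus control) for all 14884 genes with a symbol in grey, with the 27 genes as ticks below the bars, coloured by role. MYLK lies in the lower tail at −0.84 and the other 26 lie between −0.45 and 0.23, within the bulk of all genes.

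Genes of 3 lists that act on this machinery, none of them in the set, were measured beside it. Of 22 measured regulators of myosin light chain phosphorylation (guanine nucleotide exchange factors, myosin phosphatase subunits and inhibitors, calmodulins, and kinases such as those of the DAPK family, among others), none was lower or higher by limma's unadjusted p (threshold 0.05) or by its adjusted p, and the median log2 fold change was 0.046. Without control replicate 1, 5 were lower and 1 higher, when 7.06% of all transcript clusters were lower and 12.9% reached that p in either direction. With array weights 3 were lower and 1 higher, when 9.62% were lower and 22.1% reached it in either direction. With an intensity trend, centred array medians, dim transcript clusters left out or only named ones kept, 1 was lower. In these settings between 2.59% and 3.19% of all transcript clusters tested were lower. The smallest p among them was that of NET1, a guanine nucleotide exchange factor, with a log2 fold change of −0.33 (8.67, 8.46 and 8.53 in overexpressing and 8.71, 9.07 and 8.88 in control cultures, unadjusted p = 0.0533 and limma adjusted p = 0.871). RND3 had −0.50, and the exchange factors ARHGEF1 and ARHGEF28 had 0.28 and −0.22.

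Of 27 measured smooth muscle and SRF-dependent genes, limma's unadjusted p was under 0.05 for 2 lower genes and 1 higher gene and 0 passed by adjusted p, with a median of 0.056, beside 2.44% lower and 2.96% higher over all transcript clusters. Only 1 was lower without control replicate 2 (2.21% of all transcript clusters), without control replicate 3 (1.74%) or without overexpression replicate 2 (2.01%). With the replicate block it was also 1 (1.96%). The count was 3 with the methods' t-test (2.3%), with centred array medians (2.91%) and without control replicate 1 (7.06%). With array weights 4 were lower and 3 higher, when 9.62% were lower and 22.1% reached that p in either direction. CSRP2, a LIM protein of smooth muscle cells, had 5.86, 5.81 and 5.54 in overexpressing cultures, against 6.32, 6.86 and 6.57 in control cultures, a log2 fold change of −0.85 (limma adjusted p = 0.778) without overlap. The study lists CSRP2 among the genes it found lower on these arrays, so this too is not independent evidence. VCL, which links actin to adhesion sites, had a log2 fold change of −0.38 without overlap (9.50, 9.31 and 9.56 in overexpressing and 9.80, 9.88 and 9.82 in control cultures, limma adjusted p = 0.871). EGR1, an immediate early gene driven by SRF, had 0.64 without overlap (8.63, 8.94 and 9.03 in overexpressing and 8.54, 8.10 and 8.04 in control cultures, limma adjusted p = 0.865), and SVIL, which encodes an actin- and myosin-binding membrane protein, had −0.25. SRF, the transcription factor on which many of these genes depend, had 0.28 (limma adjusted p = 0.871), and its groups overlapped.

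Of 31 measured genes of actin nucleation and turnover, limma's unadjusted p was under 0.05 for 2 lower and 0 higher genes. Over all transcript clusters 2.44% were lower and 2.96% higher at that p, and 0 of the 31 passed by adjusted p. The log2 fold change was below 0 in 21 of the 31, with a median of −0.081. It was below 0 in 44.5% of all transcript clusters and 48.0% of genes with a symbol. Without control replicate 1, 8 of these genes were lower and 2 higher. In that setting 7.06% of all transcript clusters were lower and 12.9% reached that p in either direction. With array weights 7 were lower and 2 higher, when 9.62% were lower and 22.1% reached it in either direction. It was 3 lower with centred array medians (2.91%) and without control replicate 2 (2.21%). Only 1 was lower without control replicate 3 (1.74%) or without overexpression replicate 2 (2.01%). CARMIL1, which binds capping protein, had a log2 fold change of −0.60 (6.02, 5.87 and 5.37 in overexpressing and 6.34, 6.39 and 6.35 in control cultures, limma adjusted p = 0.865) and is on the study's list under an older symbol. The formin FHOD3 had −0.41 (6.42, 6.26 and 6.42 in overexpressing and 6.63, 6.85 and 6.84 in control cultures, limma adjusted p = 0.871). VASP, which promotes filament elongation, had 0.30 and LIMK2, a cofilin kinase, −0.31. Over the 3 lists together 5 of 80 genes had an unadjusted p under 0.05, where 5.4% of all transcript clusters had one. That number was 20 of 80 without control replicate 1, when 12.9% of all transcript clusters reached it. It was 3 of 80 without control replicate 3 (3.65%) or without overexpression replicate 2 (4.48%).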

How the data were processed

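Total RNA of 3 miR-1287-5p overexpressing and 3 control cultures was hybridized to Affymetrix gene arrays, 1 per culture. The authors deposited log2 signals, 1 per transcript cluster and array. They were made with RMA (Partek Genomics Suite 6.6), which subtracts background, equalizes the arrays' quantiles, takes log2 and summarizes probes by median polish, so that differences common to all genes of an array had been removed. The genome build behind the transcript clusters is not given in the sources used here. No normalization was added.

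Symbols came from the platform's probe-to-gene table, which gives 1 symbol for 16098 transcript clusters, several for 0, and leaves 37519 unnamed here. Of several transcript clusters of a gene the brightest over all 6 arrays was used. All 53617 transcript clusters were fitted using limma 3.58.1 (R 4.3.3) with moderated two-sided tests, and p-values were adjusted by Benjamini-Hochberg over this whole table, with a threshold of 0.05. The 95% intervals come from this fit and are not adjusted. The fit was tested on simulated data. Pairs of relatives were compared by the difference of their signals on each array.

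The genes and lists were chosen with earlier results of these data known. Genes named are MYLK, those at an unadjusted p under 0.05, the 5 with the largest fold change each way, named contractile genes and the 4 smallest p of each list. The values of the other myosins, of MYLK-AS1, of the pairs and of SRF were added after the data were seen.

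Alternatives were an intensity trend, the methods' t-test (unpaired Student test), the replicate block, centred array medians, cyclic loess, leaving out dim transcript clusters, keeping only named ones, array weights, the mean over a gene's transcript clusters, and each array left out.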

Additional observations from a re-analysis of the deposited data

How the results depend on the processing

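No gene of the set passed an adjusted p under 0.05 in any of the 15 alternatives. MYLK kept its direction in all 15, with a log2 fold change between −0.87 and −0.79, an unadjusted p between 3e-05 and 0.00205 and an adjusted p between 0.062 (array weights) and 0.989 from limma's test or the methods' t-test. The median of the set stayed between −0.059 and 0.077. Of the 13 genes followed across alternatives, 0 changed direction, though the size of several moved with 1 array, as given beside their intervals above.

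The count of genes lower at an unadjusted p under 0.05 was 1 in the reported setting, where 2.44% of all transcript clusters were lower. It was 2 with an intensity trend (2.59%) and with the methods' t-test (2.3%), both with MYO1E added, 2 after cyclic loess (2.99%, TAGLN added), 3 with array medians centred (2.91%, both added) and 4 with array weights (9.62%; MYO1E, TAGLN and TPM1 added). With array weights 1 gene, MYO1H, was higher, but 22.1% of all transcript clusters then reached that p in either direction, and control replicate 3 had a weight of 7.91 against 0.366 and 0.514 for control replicates 1 and 2. With each array left out the count was between 1 and 3, 3 without control replicate 1 (7.06% of all transcript clusters; MYO9A and TPM1 added) and 2 without control replicate 2 (2.21%, TAGLN added). The count of genes higher was 0 each time. Of the 80 genes of the 3 lists, 8 had such a p in either direction with array medians centred (5.41% of all transcript clusters). With array weights 20 had one (22.1%), and with each array left out between 3 and 20 (3.65% to 12.9%). These list counts were added after the data were seen and were not computed for the mean over transcript clusters.

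Same-numbered arrays of the groups did not deviate together (correlations of their deviations −0.473, −0.0018 and −0.081 for replicates 1, 2 and 3), so the numbers were not taken to pair the cultures. These correlations were taken over the 26808 transcript clusters with a mean signal above the median. With the replicate block, 1 gene was lower and 0 higher, and MYLK had an adjusted p = 0.947 in limma.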
